A study of Mus musculus with 8 samples.

Results

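The cells described here carried transcripts of the last part of the cell cycle, in 6 droplet libraries of tdTomato+ cells sorted from embryonic mouse forelimbs. Some of them at E14.5 and E16.5 carried epithelial markers. A cell of at least 3000 unique molecular identifiers (UMIs, each marking 1 captured transcript) and at most 10% mitochondrial UMIs was taken as a G2/M cell when at least 5 of 7 genes (*Birc5*, *Mki67*, *Ccnb1*, *Top2a*, *Cenpf*, *Ube2c* and *Cdc20*) had a UMI. The rule gave 6975 G2/M cells of 41939 cells. They numbered 1182, 965, 913 and 1176 from E11.5 to E14.5, day by day, 1832 in the proximal and 907 in the distal segment of E16.5 forelimbs. The comparison cells were 14829 non-cycling cells of the same libraries, which had 0 UMIs of the 7 genes and, after thinning to 3000 UMIs, fewer than 3 of 12 S-phase genes. A cell in the first gap phase of an active cycle would also meet this definition.

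The embryos, of the C57BL/6J strain, are labelled with CreERT2 at both copies of *Hic1* and with the LSL tdTomato reporter at both copies of Rosa26. The dams were given 7.5 mg of tamoxifen at embryonic day 10, after which tdTomato marks cells in which the *Hic1* promoter was active then, together with their descendants. *Hic1* encodes a transcriptional repressor first described through its silencing in tumours. The same genotype and treatment are given for every stage, and no wild-type limb was compared. Forelimbs of several embryos were pooled for each library, and the sort left out cells with blood and endothelial surface markers. Each stage or segment was 1 library, so no test was made. Brackets hold exact 95% intervals, which take in the error of counting and nothing else. E11.5, E12.5 and E13.5 cells went through the v2 reagent kit and later cells through v3, and the dissociation enzymes changed at E13.5, so that stage, kit and dissociation cannot be told apart, and gene levels were therefore compared within a library. The E16.5 proximal segment, around the elbow, lacks the hand, and both E16.5 segments came from forelimb pairs that were cut in parts.

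In dividing cells DNA is copied in S phase, after which cyclin B with *Cdk1* drives entry into mitosis and the anaphase-promoting complex, with its activator *Cdc20* and the ubiquitin-conjugating enzyme *Ube2c*, drives the exit. Many genes of this last part are repressed in resting cells and switched on together, and 2 promoter elements recur among them, the cell cycle genes homology region (TTTGAA) and the CCAAT box bound by NF-Y. Limb mesenchyme grows by division while its cells become cartilage, tendon, dermis, fascia and vessel-associated cells, and specialised matrix-forming cells commonly leave the cycle as they mature.

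The stretches of 150 bases just upstream of the annotated starts of the 7 genes are shown because these genes define the cells and were on together in them (RefSeq, GRCm38.p6, 5′ to 3′ on the strand of the gene, and coordinates with the first base counted as 1). Capitals mark TTTGAA or CCAAT on either strand (TTCAAA and ATTGG when read on the gene's strand).
Mki67: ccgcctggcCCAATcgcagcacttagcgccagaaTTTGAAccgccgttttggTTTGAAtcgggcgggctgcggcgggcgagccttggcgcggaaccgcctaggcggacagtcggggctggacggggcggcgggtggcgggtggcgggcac
Top2a: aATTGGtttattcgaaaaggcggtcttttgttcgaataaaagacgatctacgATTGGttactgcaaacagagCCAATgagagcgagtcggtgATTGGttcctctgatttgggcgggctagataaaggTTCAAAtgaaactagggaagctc
Ube2c: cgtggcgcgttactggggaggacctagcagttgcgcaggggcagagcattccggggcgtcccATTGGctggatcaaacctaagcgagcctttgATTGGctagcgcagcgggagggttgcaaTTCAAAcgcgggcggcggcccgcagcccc
Cdc20: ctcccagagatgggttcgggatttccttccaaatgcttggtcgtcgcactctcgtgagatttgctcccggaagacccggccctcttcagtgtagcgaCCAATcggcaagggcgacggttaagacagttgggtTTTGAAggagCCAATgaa
Ccnb1: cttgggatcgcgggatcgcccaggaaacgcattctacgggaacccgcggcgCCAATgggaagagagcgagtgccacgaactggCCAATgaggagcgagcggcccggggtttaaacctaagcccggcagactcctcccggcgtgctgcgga
Birc5: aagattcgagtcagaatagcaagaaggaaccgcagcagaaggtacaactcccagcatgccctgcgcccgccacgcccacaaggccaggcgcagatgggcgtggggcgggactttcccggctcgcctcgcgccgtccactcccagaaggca
Cenpf: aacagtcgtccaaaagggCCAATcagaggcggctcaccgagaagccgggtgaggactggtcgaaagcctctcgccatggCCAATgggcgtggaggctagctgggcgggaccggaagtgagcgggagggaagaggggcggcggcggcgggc
These windows are *Mki67* chr7:135716380-135716529 (minus strand), *Top2a* chr11:99024190-99024339 (minus strand), *Ube2c* chr2:164769779-164769928 (plus strand), *Cdc20* chr4:118437344-118437493 (minus strand), *Ccnb1* chr13:100786487-100786636 (minus strand), *Birc5* chr11:117849087-117849236 (plus strand) and *Cenpf* chr1:189688087-189688236 (minus strand). TTTGAA was found in 4 of the 7 windows (*Mki67*, *Top2a*, *Ube2c* and *Cdc20*), in 6 of 25 windows of other G2/M genes with an entry, in 0 of 10 of S-phase genes and in 9.07% of all 32851 promoter windows of this length. CCAAT was found in 6 of the 7, in 19 and 8 of those other windows and in 24.5% of all. The 2 patterns share no base in these windows, and a match is a description of the letters only.

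The share of G2/M cells was largest at E11.5, at 37.3% (35.7 to 39.1), and smallest in the E16.5 distal segment, at 10.7% (10.1 to 11.4). Between them it was 20.5% at E12.5, 14.9% a day later, 14.03% at E14.5 and 16.5% in the E16.5 proximal segment. The rule needs detected transcripts, and the libraries differ in depth. With every cell thinned to 3000 UMIs the shares were 17.8, 10.9, 8.38, 4.47, 4.96 and 4.32% in the same order, and the intervals of the last 3 libraries then overlapped. Both orders put E11.5 first, E12.5 second and the distal segment last, and they differ in the place of the proximal segment, which stood above E13.5 and E14.5 before thinning and below E13.5 after it. In 2 libraries of whole E11.5 forelimbs, of lineage-negative cells with or without tdTomato, 53.6% and 52.8% of the cells met the rule, and 25.1% and 22.9% after thinning.

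**Figure D1:**
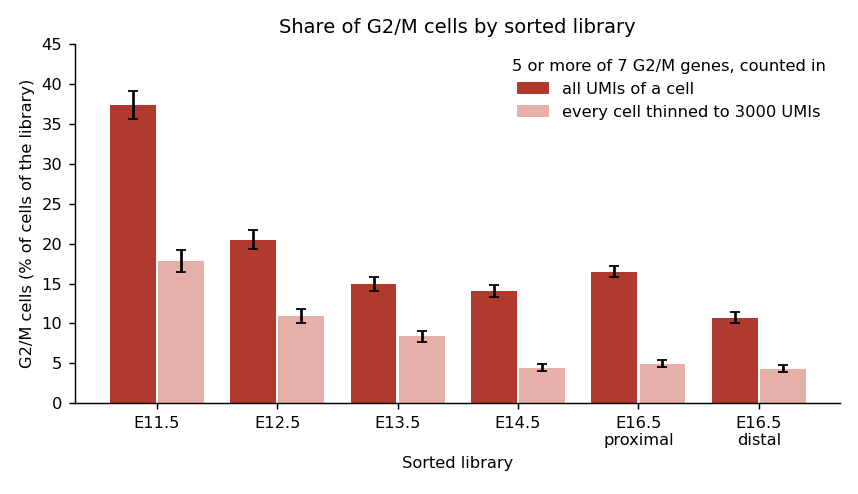
Share of G2/M cells in each sorted library, in percent of its cells (vertical axis), by the rule on all UMIs of a cell (dark bars) and on every cell thinned to 3000 UMIs (light bars), with exact 95% intervals. The E11.5 bars are the tallest of both kinds, and the light bars of E14.5 and of both E16.5 segments lie between 4.32 and 4.96%.

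G2/M cells had more UMIs than non-cycling cells in every library, and the rule favours deep cells. Their median depth was 12104, 12370, 10151, 22590, 26319 and 25502 UMIs, against 6838, 7455, 6043, 12517, 15421 and 15647 UMIs, from E11.5 to E16.5 distal, which is 1.63 to 1.805 times as many. Between 30.1% (E16.5 proximal) and 56.2% (E13.5) of the G2/M cells also met the rule after thinning. Identity results were therefore also computed by the thinned rule, and with the non-cycling cells weighted to the depth of the G2/M cells (depth weighting). The weighting leaves few cells in effect at the early stages, 50.6 at E11.5 and 91.9 at E12.5.

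The 7 genes that chose the cells are at 0 in the non-cycling cells by definition, and their levels are a description. *Top2a*, the topoisomerase that untangles replicated chromosomes, was at 757, 1019, 850.1, 682, 639.5 and 1177 CPM (UMIs of the gene per 1000000 UMIs of the cell group) from E11.5 to E16.5 distal. *Mki67*, the Ki-67 protein that coats mitotic chromosomes, was at 229, 233, 238, 223, 282 and 671 CPM, and *Cenpf*, a kinetochore protein, at 322, 315, 364, 269, 266 and 455 CPM. Cyclin B1 (*Ccnb1*) was at 296, 373, 397, 188, 145 and 141 CPM and *Cdc20* at 351, 296, 343, 145, 124 and 131 CPM. *Ube2c* ranged from 515 (E16.5 proximal) to 721 CPM (E13.5), and *Birc5*, the survivin of the chromosomal passenger complex, from 462 (E11.5) to 695 CPM (E13.5). These levels come from the 2 kits and are not compared between libraries.

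The levels of 30 further genes of the same phase are a description and no check of the name G2/M. Many genes of this phase are switched on together, and both cell groups were chosen by 7 of them. The name applies in part, since many of the cells also carried S-phase transcripts, as given below. All 30 were at least 1.5-fold higher in G2/M cells in each of the 6 libraries, with the smallest difference 9.03-fold (*Cenpa*, the centromeric histone, at E11.5) and the largest 537-fold (*Hmmr*, a spindle protein, at E16.5 distal). Among all genes at a mean of 10 CPM or more, 6.67, 6.07, 6.75, 8.13, 9.18 and 11.5% were at least 1.5-fold higher in G2/M cells and 6.41, 5.26, 5.03, 5.28, 5 and 4.46% at least 1.5-fold lower, from E11.5 to E16.5 distal. Aurora kinase A (*Aurka*), which matures spindle poles, was at 176 against 13.2 CPM at E11.5 and 45.1 against 0.7096 CPM at E16.5 distal. S-phase genes were higher as well, 11 of 12 at E11.5, E12.5 and E13.5 and 12 of 12 later, and *Rrm2*, a subunit of ribonucleotide reductase, was at 427 against 46.4 CPM at E11.5 and 189 against 10.6 CPM at E16.5 proximal. The comparison cells had been limited to few S-phase genes, so these values are a description. The exception was *Mcm6*, a part of the replicative helicase, which was within 1.5-fold of the non-cycling level in the first 3 libraries.

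Transcripts of both phases were found together in many of the cells. After thinning, 3 or more of the 12 S-phase genes were detected in 64.6, 57.7, 55.4, 58.4, 46.4 and 46.6% of the G2/M cells, from E11.5 to E16.5 distal. Those with fewer S-phase genes had more of *Ccnb1*, *Cdc20*, *Plk1* and *Aurka* in every library, whereas *Cdk1* at E16.5 distal was at 295 CPM in them and 300.4 CPM in the others. *Plk1*, the mitotic polo-like kinase, was at 160.1, 123, 173, 92.9, 66.2 and 82.8 CPM in them and at 115, 81.7, 97.5, 50.1, 37.98 and 47.6 CPM in the others. The linker histone gene *Hist1h1b*, transcribed while DNA is copied, showed the opposite order in every library, with 99.3 against 208 CPM at E11.5 and 1216 against 3538 CPM at E16.5 distal. The cells just inside and just outside the rule compare as follows. At E14.5, 240 cells with 5 genes had a median of 19274 UMIs and 23.8 CPM of *Plk1*, and 208 cells with 4 genes had 17677 UMIs and 11.3 CPM. *Ccnb2* (cyclin B2) was at 137 CPM in the first and 116 CPM in the second. At E11.5 the corresponding numbers were 202 cells with 58.7 CPM and 160 cells with 36.7 CPM of *Plk1*, and *Ccnb2* was at 106 and 96.1 CPM.

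Of the cyclins of the first gap phase, cyclin D2 was lower in G2/M cells throughout. Cyclin D2 (*Ccnd2*) was at 593, 645, 451, 313, 217 and 297 CPM in G2/M cells and 1199.5, 1108, 771, 515, 276 and 652 CPM in non-cycling cells, from E11.5 to E16.5 distal, so that it was lower in all 6 libraries and at least 1.5-fold lower in 5, and 2.19-fold lower (2.14 to 2.25) at E16.5 distal. It kept this direction under all 11 alternatives in every library. Cyclin D1 (*Ccnd1*) was 1.797-fold lower (1.66 to 1.95) at E11.5 and 1.55-fold lower (1.44 to 1.66) at E13.5, and cyclin D3 (*Ccnd3*) stayed within 1.5-fold in every library. Of the inhibitors of cyclin-dependent kinases, *Cdkn2c* (p18) was higher in all 6 libraries, with 20.8 against 0.783 CPM at E13.5 and 70.9 against 5.95 CPM at E16.5 distal, although its mean passed 10 CPM only in the last 4. *Cdkn1a* (p21) was 1.81-fold higher (1.44 to 2.29) at E13.5 and 1.78-fold higher (1.63 to 1.95) at E14.5. With depth weighting its log2 ratio at E13.5 was 0.03, against 0.86 unweighted, and at E14.5 it was 0.58 by the thinned rule, just under 1.5-fold, as was *Ccnd1* at E13.5 with depth weighting (-0.58). *Cdkn1b* (p27), *Cdkn1c* (p57), *Btg1*, *Btg2*, *Gas1* and *Rbl2* were within 1.5-fold in every library where they were measured.

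Turning to what the cells were becoming, 94 identity genes in 10 lists were compared. At a mean of 10 CPM or more, 51, 58, 64, 75, 78 and 77 of them were measured, from E11.5 to E16.5 distal. At least 1.5-fold higher in G2/M cells were 7, 5, 4, 10, 7 and 11 of these (13.7, 8.62, 6.25, 13.3, 8.97 and 14.3%, where all genes gave 6.67, 6.07, 6.75, 8.13, 9.18 and 11.5%). At least 1.5-fold lower were 4, 7, 7, 14, 19 and 6 (7.84, 12.1, 10.9, 18.7, 24.4 and 7.79%, where all genes gave 6.41, 5.26, 5.03, 5.28, 5 and 4.46%). The shares higher were just under those of all genes at E13.5 and E16.5 proximal and above them elsewhere, and the shares lower stood farthest above those of all genes at E14.5 and E16.5 proximal. The counts at E16.5 depended on how depth was treated, with 18 higher and 7 lower by the thinned rule in the proximal segment, and 20 higher by the thinned rule and 21 lower with depth weighting in the distal one. No share over all genes is given for those settings, so their counts are not read as a result about identity genes. Most measured identity genes were within 1.5-fold of the non-cycling level at every stage. The rule on all UMIs gave 101 differences past 1.5-fold. Under all 11 other ways of choosing, weighting or scaling the cells, 70 kept their direction and 25 stayed past 1.5-fold. Some of the 11 could hardly change a ratio. Leaving out Scrublet calls or the minimum level left all 171 values of named identity genes on their side. Under both the thinned rule and depth weighting, 40 of the 101 stayed past 1.5-fold. The 25 were, among higher genes, *Irx1*, *Lef1*, *Nkd2* and *Rspo1* at E14.5, *Irx1*, *Rgs5* and *Wnt6* in the E16.5 proximal segment and *Col7a1*, *En1*, *Irx1*, *Nkd2*, *Scx* and *Wnt6* at E16.5 distal. Among lower genes they were *Tagln* at E11.5, *Aldh1a2* and *Dcn* at E12.5, *Dcn* and *Htra3* at E13.5, *Hmcn1*, *Mfap5*, *Prss12* and *Rspo3* at E14.5, *Prss12* at E16.5 proximal and *Clec3b* and *Dkk2* at E16.5 distal. No identity gene was past 1.5-fold in the same direction in 5 or more libraries.

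**Figure D2:**
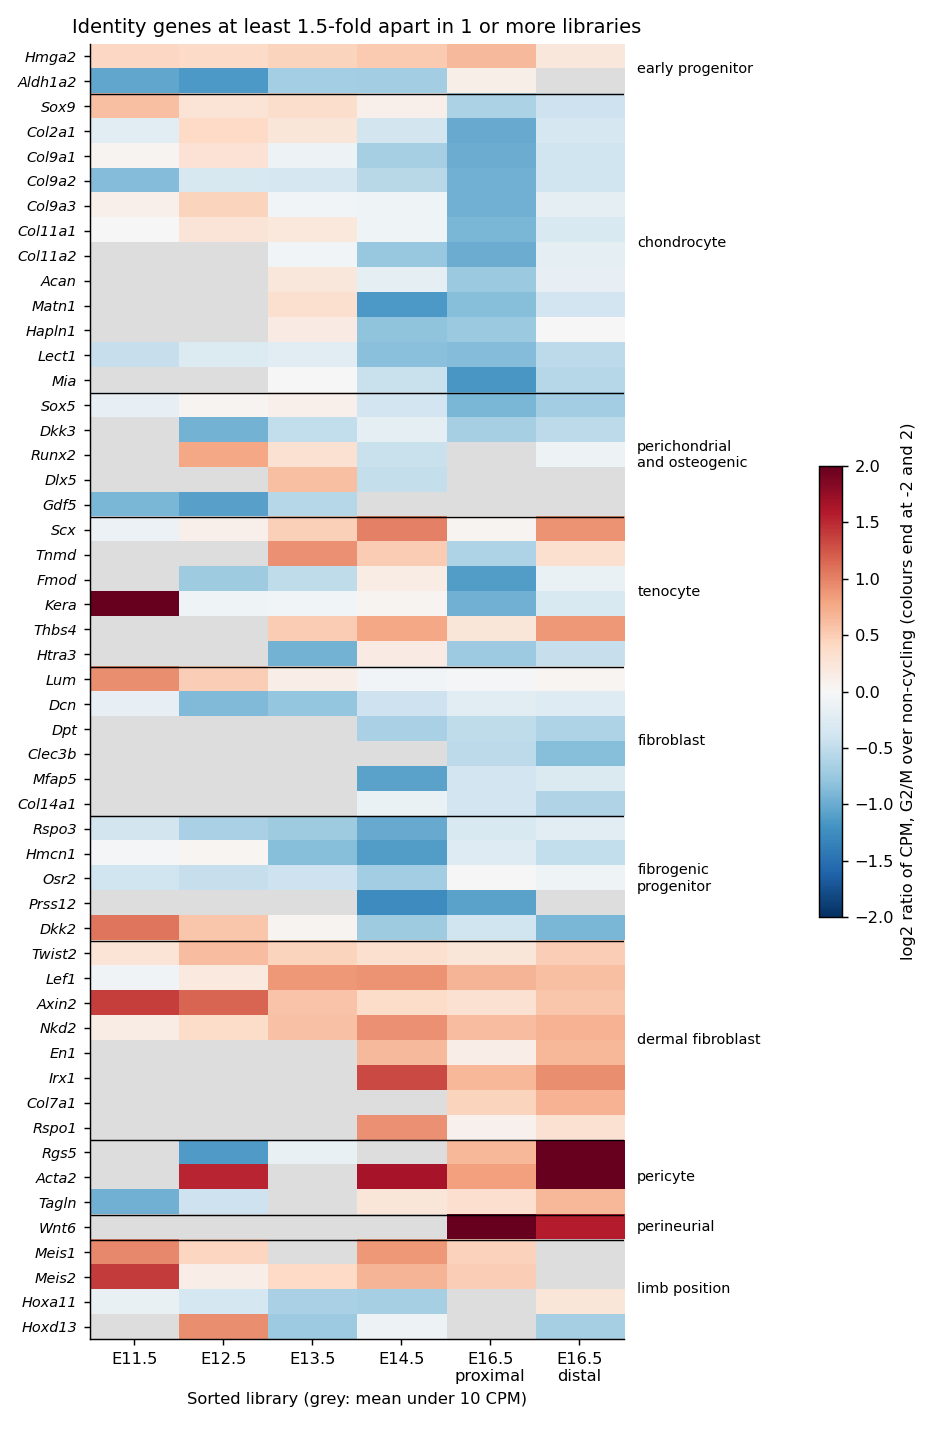
Log2 ratio of CPM in G2/M over non-cycling cells of the same library (colour, red higher and blue lower in G2/M cells, grey where the mean is under 10 CPM) for identity genes at least 1.5-fold apart in 1 or more of the 6 sorted libraries (columns), grouped by list. Most dermal fibroblast genes are red at E14.5 and at E16.5 distal, fibrogenic progenitor genes are blue at E14.5, and the blue chondrocyte block at E16.5 proximal turned to ratios between -0.07 and 0.46 by the thinned rule.

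The summed level of early progenitor genes was slightly higher in G2/M cells from E12.5 on. Their summed level in G2/M cells was 1.05, 1.06, 1.07, 1.11, 1.28 and 1.14 times that of non-cycling cells from E11.5 to E16.5 distal, 1.07, 1.08, 1.18, 1.33, 1.57 and 1.28 times by the thinned rule and 0.975, 1.102, 1.21, 1.31, 1.63 and 1.32 times with depth weighting, which turned E11.5. The median log2 ratio of the list was -0.06, 0.01, 0.22, 0.01, 0.18 and 0.12, at E11.5 on the other side from the sum. At E12.5, E13.5 and E14.5 *Id1*, *Id2*, *Id3* and *Hmga2* were higher and *Osr1*, *Tcf7l2*, *Sox11* and *Aldh1a2* lower in G2/M cells. The log2 ratios were -0.30, -0.30 and -0.55 for *Osr1* and -0.33, -0.33 and -0.39 for *Tcf7l2*. Past 1.5-fold was at most 1 gene of the list in a library. *Hmga2*, a chromatin protein of embryonic growth, was at 817, 546, 279.6, 74.5, 19.3 and 11.3 CPM in G2/M cells and 614, 419.8, 206, 51.7, 12.4 and 9.71 CPM in non-cycling cells. It was higher in G2/M cells in all 6 libraries, and past 1.5-fold at E16.5 proximal alone, where it was 1.56-fold higher (1.42 to 1.72), though not past 1.5-fold under every alternative. With depth weighting its log2 ratio was -0.17 at E11.5 and -0.01 at E12.5. *Id3*, an inhibitor of basic helix-loop-helix factors that holds back differentiation, was at 2368, 2286, 593, 732, 749.9 and 583 CPM in G2/M cells and 2194, 2121, 428, 512, 533 and 477 CPM in non-cycling cells, again higher in all 6 (except with depth weighting at E11.5, where the log2 ratio was -0.12) and past 1.5-fold in none. *Aldh1a2*, which makes retinoic acid and is a proximal limb gene, was at 39.9, 32.8, 11.7, 12.9, 10.5 and 7.48 CPM in G2/M cells and 81.6, 72.99, 18.7, 20.99, 9.64 and 8.82 CPM in non-cycling cells. It was at least 1.5-fold lower in G2/M cells from E11.5 to E14.5 (2.23-fold lower (1.97 to 2.52) at E12.5), and level with non-cycling cells at E16.5. With depth weighting its log2 ratio was 0.08 at E11.5, -0.50 at E13.5 and -0.31 at E14.5, all under 1.5-fold.

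The summed level of the dermal fibroblast list was higher in G2/M cells at E14.5 and in both E16.5 segments. At least 1.5-fold higher were 5 of 9 measured genes at E14.5, 3 of 10 in the proximal and 5 of 10 in the distal segment, and none was lower. Of the 3 proximal genes only *Irx1* stayed past 1.5-fold under every alternative. *Lef1* did not hold without cells of epithelial markers, and *Nkd2* kept its direction only, as given below. The median log2 ratio of the list was 0.65, 0.39 and 0.58, where that of all measured genes was -0.06, 0.01 and 0.01. The summed level was 1.22, 1.28 and 1.34 times that of non-cycling cells, 1.39, 1.695 and 1.59 times by the thinned rule and 1.28, 1.96 and 1.76 times with depth weighting. Without cells that carried epithelial markers it was 1.25, 1.24 and 1.36 times. At E11.5, E12.5 and E13.5 the summed level was 1.11, 1.32 and 1.11 times that of non-cycling cells. It was 1.04, 1.13 and 1.03 times by the thinned rule and 0.980, 0.985 and 0.872 times with depth weighting, which turned each of these.

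*Irx1*, an Iroquois homeobox gene, was at 0.262, 1.83, 12.96, 114, 67.4 and 70.5 CPM in G2/M cells and 0, 0.725, 5.24, 45.6, 42.4 and 37.2 CPM in non-cycling cells. It was higher in G2/M cells from E12.5 on, though its mean passed 10 CPM only from E14.5, and was 2.49-fold higher (2.36 to 2.64) at E14.5, 1.59-fold higher (1.51 to 1.67) in the proximal and 1.896-fold higher (1.78 to 2.02) in the distal segment. *Lef1*, which carries Wnt signals to DNA in dermal condensates, was at 25.99, 16.1, 13.1, 18.5, 16.5 and 23.9 CPM in G2/M cells and 27.2, 14.1, 7.12, 9.89, 10.4 and 15.8 CPM in non-cycling cells. It was level at E11.5 and E12.5 and 1.83-fold higher (1.39 to 2.43) at E13.5 and 1.87-fold higher (1.64 to 2.13) at E14.5. At E16.5 proximal its log2 ratio of 0.67 became -0.10 when cells with epithelial markers were left out. These were 202 of the 1832 G2/M cells and 251 of the 3696 non-cycling cells there. At E16.5 distal it was 1.51-fold higher (1.36 to 1.68). *Nkd2*, a feedback inhibitor of Wnt signalling, was at 45.1, 23.2, 22.7, 25.02, 15.4 and 25.7 CPM in G2/M cells and 40.8, 17.9, 15.1, 13.3, 10.02 and 15.8 CPM in non-cycling cells and past 1.5-fold in the last 4 libraries. Its log2 ratio at E13.5 turned from 0.59 to -0.31 with depth weighting. At E16.5 proximal *Nkd2* kept its direction under all 11 alternatives but did not stay past 1.5-fold in each.

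At the early stages the Wnt target *Axin2* stood out in this list, with 16.6 against 6.40 CPM at E11.5 and 17.4 against 7.76 CPM at E12.5, which is 2.598-fold higher (1.57 to 4.62) and 2.25-fold higher (1.72 to 2.96). With depth weighting the log2 ratio was 0.45 at E11.5, under 1.5-fold, and turned to -0.22 at E12.5. *Rspo1*, a secreted enhancer of Wnt signalling, was 1.89-fold higher (1.73 to 2.05) at E14.5, with 42.7 against 22.6 CPM. *En1*, a homeobox gene of ventral limb, was 1.57-fold higher (1.41 to 1.75) at E14.5 and 1.58-fold higher (1.45 to 1.73) at E16.5 distal, and *Col7a1*, the anchoring fibril collagen of skin, was 1.63-fold higher (1.53 to 1.72) at E16.5 distal.

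**Figure D3:**
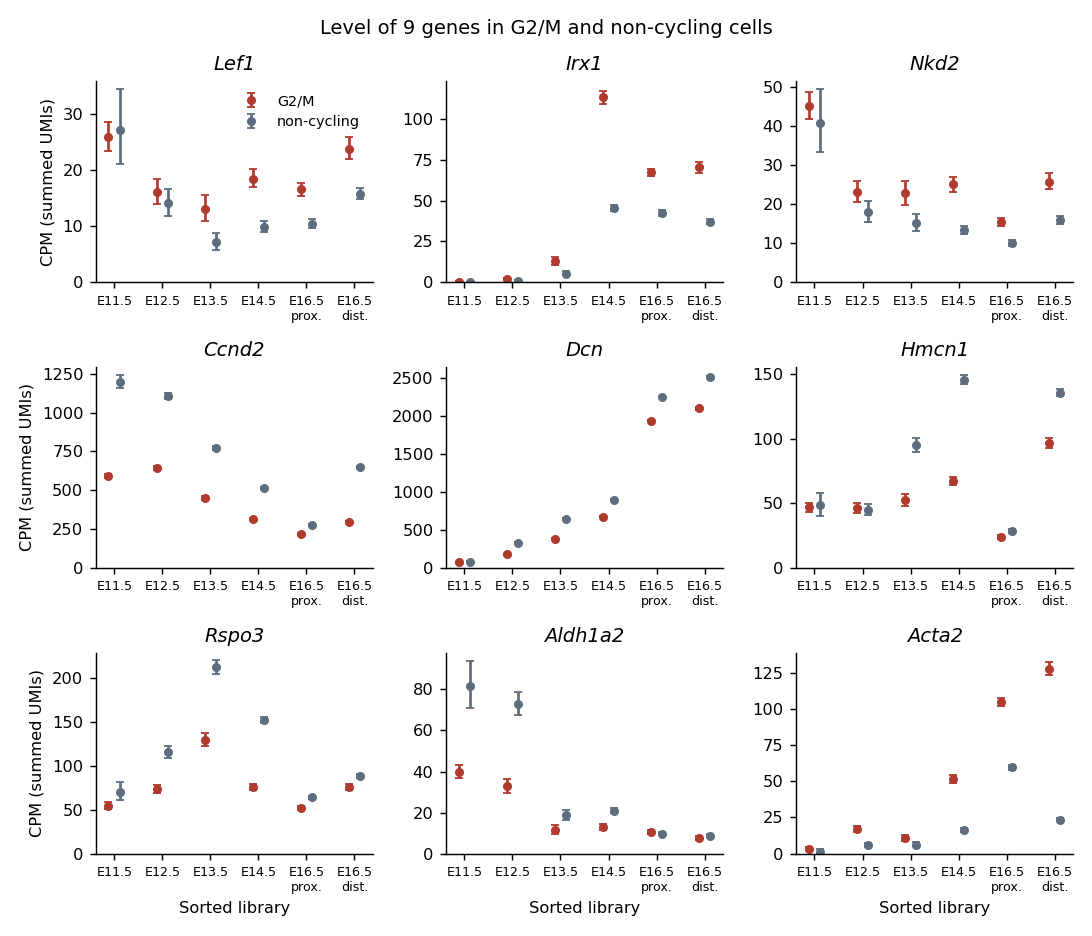
Level of 9 genes in CPM (vertical axis, starting at 0) in G2/M cells (red) and non-cycling cells (grey) of each sorted library, with exact 95% Poisson intervals (none is drawn at 0 UMIs). Irx1 in G2/M cells reached 114 CPM at E14.5 against 45.6 CPM, Ccnd2 lay lower in G2/M cells in all 6 libraries, and Acta2 at E16.5 distal, at 128 against 23.4 CPM, lost its difference by the thinned rule (log2 ratio -0.08).

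At E14.5 fibrogenic progenitor genes were lower in G2/M cells. There all 5 were at least 1.5-fold lower, the median log2 ratio was -1.01, and the summed level was 304 against 569 CPM, a ratio of 0.533 (0.5205 to 0.547). In the other libraries 0 of 4, 1 of 4, 2 of 4, 1 of 5 and 1 of 4 measured genes were lower, in order of stage, and 1, at E11.5, was higher, counts too small to set apart from the shares over all genes. From E11.5 to E16.5 distal the summed ratio was 0.836, 0.857, 0.709, 0.533, 0.806 and 0.714, 0.949, 0.868, 0.709, 0.595, 0.996 and 0.799 by the thinned rule and 0.793, 0.898, 0.734, 0.606, 1.05 and 0.769 with depth weighting, so that the proximal segment did not hold. *Hmcn1*, the matrix protein hemicentin, was at 46.9, 46.2, 52.3, 67.2, 23.99 and 96.5 CPM in G2/M cells and 48.4, 45.04, 94.9, 146, 28.6 and 135 CPM in non-cycling cells. It was level at E11.5 and E12.5, and 1.81-fold lower (1.63 to 2.02) at E13.5 and 2.17-fold lower (2.06 to 2.28) at E14.5, of which the first was under 1.5-fold with depth weighting (log2 ratio -0.36). *Rspo3*, another secreted enhancer of Wnt signalling, was at 54.5, 73.2, 129.6, 75.3, 51.9 and 75.7 CPM in G2/M cells and 70.4, 115, 212, 152, 63.9 and 87.8 CPM in non-cycling cells, lower in all 6 libraries and past 1.5-fold from E12.5 to E14.5. With depth weighting its log2 ratio was 0.12 at E11.5 and, under 1.5-fold, -0.51 at E12.5 and -0.45 at E13.5, and at E16.5 proximal it was 0.17 by the thinned rule and 0.39 with weighting. *Prss12*, a secreted serine protease, was 2.40-fold lower (2.13 to 2.71) at E14.5 and 2.101-fold lower (1.88 to 2.35) at E16.5 proximal. *Osr2*, an odd-skipped transcription factor, passed 1.5-fold at E14.5 alone, where it was 1.61-fold lower (1.498 to 1.73), and under it in both depth settings (log2 ratios -0.55 and -0.39). The Wnt antagonist *Dkk2* changed side between stages. It was 2.09-fold higher (1.56 to 2.87) at E11.5, where depth weighting turned the log2 ratio from 1.06 to -0.18, and 1.63-fold lower (1.57 to 1.701) and 1.89-fold lower (1.79 to 2.00) at E14.5 and E16.5 distal.

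The summed level of the fibroblast list was lower in G2/M cells from E12.5 on, while few of its genes passed 1.5-fold. Up to E13.5 only *Pdgfra*, *Fbn1*, *Lum* and *Dcn* of this list were measured. At E12.5 the sum was 876 against 944 CPM, and *Dcn* alone was at 179 against 329 CPM. There the log2 ratios of *Lum*, *Fbn1* and *Pdgfra* were 0.50, 0.29 and -0.20. At E13.5 the sum was 1060 against 1375 CPM and *Dcn* 375 against 643 CPM. The lower sum before E14.5 thus rested mostly on *Dcn*. Lower were 0 of 4, 1 of 4, 1 of 4, 2 of 9, 0 of 13 and 3 of 13 measured genes, from E11.5 to E16.5 distal, where all genes gave 6.41, 5.26, 5.03, 5.28, 5 and 4.46%, and with so few genes a count of 0 or 1 lies near those shares. At E11.5, 1 was higher. The median log2 ratio of the list was -0.02, 0.05, -0.16, -0.41, -0.22 and -0.27, so that at E11.5 and E12.5 the median and the sum lay on opposite sides. The summed ratio of the list was 1.12, 0.927, 0.771, 0.815, 0.861 and 0.845 from E11.5 to E16.5 distal, 1.13, 0.864, 0.782, 0.805, 0.9197 and 0.822 by the thinned rule and 1.09, 0.734, 0.512, 0.699, 0.9504 and 0.747 with depth weighting. Decorin (*Dcn*), a small leucine-rich proteoglycan that organises collagen fibrils, was at 74.1, 179, 375, 673, 1939 and 2099.7 CPM in G2/M cells and 82.8, 329, 643, 893, 2254 and 2512 CPM in non-cycling cells. It was lower in all 6 libraries (with depth weighting at E16.5 proximal the log2 ratio was 0.01), 1.84-fold lower (1.74 to 1.94) at E12.5 and 1.71-fold lower (1.65 to 1.78) at E13.5, and within 1.5-fold at the other stages. Its relative lumican (*Lum*) was 1.902-fold higher (1.63 to 2.23) at E11.5 and within 1.5-fold later, and its log2 ratio at E11.5 was 0.93, or 0.11 with depth weighting. *Mfap5*, a microfibril protein, was 2.101-fold lower (1.92 to 2.305) at E14.5. Among genes of the universal fibroblasts, *Dpt* (dermatopontin) was 1.57-fold lower (1.38 to 1.79) at E14.5 and 1.54-fold lower (1.47 to 1.61) at E16.5 distal, *Clec3b* (tetranectin) 1.80-fold lower (1.73 to 1.88) and *Col14a1* (collagen XIV) 1.52-fold lower (1.48 to 1.56) at E16.5 distal. *Pi16* was at 10.2 against 11.98 CPM in the proximal and 24.2 against 33.97 CPM in the distal segment, within 1.5-fold in both, and *Pdgfra*, the receptor that marks mesenchymal progenitors, was within 1.5-fold everywhere, its log2 ratios lying between -0.43 (E13.5) and 0.17 (E16.5 proximal).

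**Figure D4:**
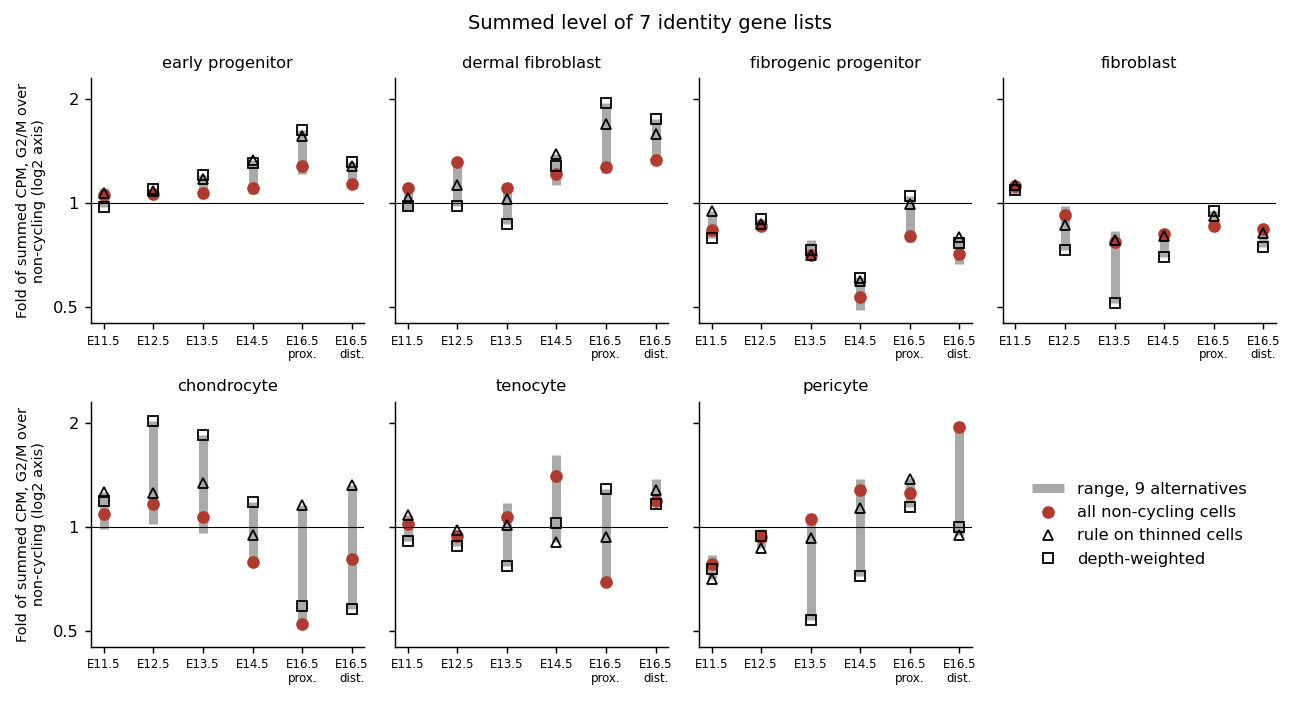
Fold of the summed CPM of 7 identity lists in G2/M over non-cycling cells (vertical log2 axis) in each sorted library. Red points use all non-cycling cells, triangles the rule on thinned cells, squares the depth-weighted non-cycling cells, and grey bars span 9 alternatives. The dermal list lies above 1 at E14.5 and E16.5 and the fibroblast list below 1 from E12.5 on by each measure, whereas the bars of the chondrocyte list cross 1 in every library except E12.5.

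Cartilage genes differed between the settings used for depth. At E16.5 proximal, where cartilage of the elbow lies in the sample, 12 of 13 were at least 1.5-fold lower in G2/M cells and their summed level was 4258 against 8150.3 CPM, a ratio of 0.522 (0.5198 to 0.525). *Col2a1*, the main collagen of cartilage, was at 181, 211, 420.2, 313, 1375 and 475 CPM in G2/M cells and 208, 159.9, 354, 404, 2776 and 601 CPM in non-cycling cells, and at E16.5 proximal it was 2.02-fold lower (2.001 to 2.04). *Mia*, a secreted cartilage protein, was 2.25-fold lower (2.13 to 2.38) and *Col11a2* 1.99-fold lower (1.94 to 2.06) there. By the thinned rule the summed ratio was 1.16 in the proximal and 1.33 in the distal segment (where it had been 0.809), and the log2 ratio of *Col2a1* at E16.5 proximal turned from -1.01 to 0.18. With depth weighting the summed ratio was 0.591 in the proximal and 0.580 in the distal segment, both below 1. For *Mia* and *Col11a2* at E16.5 proximal the log2 ratio was -0.07 and 0.23 by the thinned rule and -0.93 and -0.99 with depth weighting. The thinned rule also changes which cells are compared, with 551 G2/M and 6704 non-cycling cells in the proximal segment. At E14.5, 5 of 12 were lower, led by *Matn1* (matrilin 1) with 43.2 against 95.9 CPM, and with depth weighting its log2 ratio moved from -1.15 to -0.20. The summed ratio at E14.5 was 0.7902, 0.945 by the thinned rule and 1.18 with depth weighting.

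Before E14.5 the summed level of cartilage genes was near that of non-cycling cells or higher, depending on the setting. The summed ratio at E11.5, E12.5 and E13.5 was 1.09, 1.17 and 1.07 with all non-cycling cells, 1.26, 1.26 and 1.34 by the thinned rule and 1.19, 2.03 and 1.85 with depth weighting. Without the S-phase limit on the comparison cells it was 0.987, 1.03 and 0.962, on the other side at E11.5 and E13.5. *Sox9*, which starts cartilage formation, was at 387, 219.7, 319.9, 138, 109 and 69.7 CPM in G2/M cells and 256, 181, 251, 128, 168 and 93.2 CPM in non-cycling cells, 1.51-fold higher (1.395 to 1.65) at E11.5 and 1.54-fold lower (1.495 to 1.596) at E16.5 proximal, where the log2 ratio was 0.08 by the thinned rule. Of the perichondrial and osteogenic genes, the joint gene *Gdf5* was 1.88-fold lower (1.34 to 2.61) at E11.5 and 2.11-fold lower (1.76 to 2.54) at E12.5, differences that depth weighting turned to log2 ratios of 0.44 and 0.25. *Runx2*, the regulator of bone formation, was 1.702-fold higher (1.36 to 2.14) at E12.5, and *Dlx5* 1.52-fold higher (1.16 to 1.996) at E13.5. *Dkk3* was 1.92-fold lower (1.51 to 2.44) at E12.5 and 1.59-fold lower (1.45 to 1.74) at E16.5 proximal, and depth weighting turned these to log2 ratios of 0.47 and 0.05. *Sox5*, a partner of *Sox9*, was 1.88-fold lower (1.72 to 2.05) and 1.61-fold lower (1.47 to 1.77) in the proximal and distal segment, which the thinned rule took to log2 ratios of 0.18 and -0.11.

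Tendon genes differed among themselves and between stages. The summed ratio of the list was 1.02, 0.942, 1.07, 1.402, 0.691 and 1.19 from E11.5 to E16.5 distal, 1.08, 0.982, 1.01, 0.905, 0.935 and 1.28 by the thinned rule and 0.909, 0.882, 0.768, 1.02, 1.29 and 1.17 with depth weighting, so that its side depended on the setting at E11.5, E13.5, E14.5 and E16.5 proximal. Scleraxis (*Scx*), the transcription factor of tendon progenitors, was at 178, 194, 202, 169.8, 59.9 and 108 CPM in G2/M cells and 192, 181, 145, 84.4, 57.4 and 57.7 CPM in non-cycling cells, 2.01-fold higher (1.93 to 2.101) at E14.5 and 1.87-fold higher (1.78 to 1.97) at E16.5 distal and level at E16.5 proximal. By the thinned rule its log2 ratio was 0.30 at E14.5, under 1.5-fold, and 1.17 at E16.5 distal. Tenomodulin (*Tnmd*), a membrane protein of maturing tendon, was at 1.24, 3.34, 21.5, 249.5, 260 and 245 CPM in G2/M cells and 1.60, 4.56, 11.3, 175, 399 and 196 CPM in non-cycling cells, 1.89-fold higher (1.53 to 2.36) at E13.5 and 1.53-fold lower (1.501 to 1.57) at E16.5 proximal, and depth weighting turned the first to a log2 ratio of -0.09 and the second to 0.54. Fibromodulin (*Fmod*) was 1.63-fold lower (1.35 to 1.98) at E12.5 and 2.18-fold lower (2.09 to 2.27) at E16.5 proximal, and *Htra3*, a secreted protease, 1.92-fold lower (1.597 to 2.31) at E13.5 and 1.65-fold lower (1.57 to 1.73) at E16.5 proximal. With depth weighting the log2 ratios of *Fmod* were -0.05 and -0.40 (-0.54 and -0.40 by the thinned rule) and that of *Htra3* at E16.5 proximal was -0.36, all under 1.5-fold, while *Htra3* at E13.5 stayed past it. Keratocan (*Kera*) was 4.39-fold higher (2.81 to 7.24) at E11.5, with 20 UMIs in the non-cycling cells, and 1.95-fold lower (1.85 to 2.06) at E16.5 proximal, with 39.7 against 77.5 CPM, and with depth weighting the first turned to a log2 ratio of -0.12 and the second fell under 1.5-fold, to -0.10. *Thbs4* (thrombospondin 4) was 1.71-fold higher (1.62 to 1.803) at E14.5, which turned to -0.29 by the thinned rule and -0.42 with depth weighting on the log2 scale, and 1.83-fold higher (1.74 to 1.92) at E16.5 distal, where the log2 ratio was 0.35 with depth weighting.

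Pericyte genes gave the largest single ratios among the measured identity genes, and several of these did not hold with depth taken into account. At E16.5 distal *Rgs5*, a regulator of G-protein signalling in mural cells, was at 52.1 against 8.82 CPM, and *Acta2*, the smooth muscle actin, at 128 against 23.4 CPM. The log2 ratios of 2.56 and 2.45 became 0.08 and -0.08 by the thinned rule, and that of *Tagln*, an actin-binding protein of smooth muscle, turned from 0.66 to -0.94. The summed ratio of the list there went from 1.95 to 0.947. After thinning, 3 or more pericyte markers were found in 28 of the 907 G2/M cells. This is 3.09% (2.06 to 4.43), against 0.916% (0.646 to 1.26) of non-cycling cells. By the thinned rule the shares were 2.19% (0.951 to 4.27) and 1.17% (0.915 to 1.48), with overlapping intervals. At E16.5 proximal, in contrast, *Rgs5* was 1.58-fold higher (1.46 to 1.702) and stayed past 1.5-fold under every alternative, and the summed ratio was 1.26, 1.37 by the thinned rule and 1.14 with depth weighting. Whether the segments differed was not tested. *Acta2* was also 2.87-fold higher (2.14 to 3.92) at E12.5, 3.15-fold higher (2.88 to 3.45) at E14.5 and 1.76-fold higher (1.69 to 1.84) at E16.5 proximal. The first turned to a log2 ratio of -0.40 by the thinned rule, and with depth weighting the second turned to -0.17 and the third fell to 0.37. At the early stages *Tagln* was 1.95-fold lower (1.37 to 2.74) at E11.5 and *Rgs5* 2.19-fold lower (1.69 to 2.85) at E12.5, the latter under 1.5-fold with depth weighting (log2 ratio -0.43). *Pdgfrb*, the receptor that recruits pericytes, was within 1.5-fold in every library.

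Of the perineurial list *Wnt6* was higher in G2/M cells of both E16.5 segments, with 25.6 against 5.504 CPM and 15.2 against 5.103 CPM, and the glucose transporter *Slc2a1* was within 1.5-fold in all 6 libraries. *Cldn1*, measured at E16.5 proximal alone, went the other way within 1.5-fold (log2 ratio -0.53), and the median log2 ratio of the list there was -0.23. *Wnt6* is also a gene of surface ectoderm. The basal keratin *Krt14* was higher in G2/M cells of both segments too, while *Krt1* and *Krt10* were lower in the proximal one, as given below. Without cells of 3 or more epithelial markers the log2 ratio of *Wnt6* was 1.21 in the proximal and 1.42 in the distal segment, where it had been 2.22 and 1.57.

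Most genes of limb position were within 1.5-fold in every library. From E11.5 to E16.5 distal 9, 11, 10, 12, 7 and 9 of them were measured. Higher were 2, 1, 0, 2, 0 and 0, where all genes gave 6.67, 6.07, 6.75, 8.13, 9.18 and 11.5%. Lower were 0, 0, 2, 1, 0 and 1, where all genes gave 6.41, 5.26, 5.03, 5.28, 5 and 4.46%. All these counts rest on few genes, and those of 2 stood above the shares over all genes. Of the HoxA and HoxD genes, which set the position along the limb, *Hoxa9*, *Hoxa10*, *Hoxd9*, *Hoxd10* and *Hoxd11* were within 1.5-fold in every library where they were measured. *Hoxa11*, a gene of the middle limb segment, was 1.56-fold lower (1.36 to 1.79) at E13.5 and 1.58-fold lower (1.44 to 1.73) at E14.5. *Hoxd13*, a gene of the hand, was at 10.1, 17.5, 19.5, 62.5, 2.64 and 58.4 CPM in G2/M cells and 2.00, 9.21, 32.3, 67.3, 1.21 and 92.3 CPM in non-cycling cells, 1.901-fold higher (1.48 to 2.46) at E12.5, 1.65-fold lower (1.39 to 1.97) at E13.5 and 1.58-fold lower (1.49 to 1.68) at E16.5 distal. With depth weighting these were 0.17, -0.09 and -0.25 on the log2 scale, each under 1.5-fold, and *Hoxa11* at E14.5 was at -0.34 by the thinned rule. The proximal genes *Meis1* and *Meis2* were 1.95-fold higher (1.46 to 2.67) and 2.64-fold higher (2.13 to 3.31) at E11.5 and 1.83-fold higher (1.57 to 2.13) and 1.59-fold higher (1.45 to 1.75) at E14.5. Depth weighting gave log2 ratios of 0.58 and 0.58 at E11.5 and 1.05 and 0.51 at E14.5, past 1.5-fold for *Meis1* at E14.5 alone.

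Single cells were then examined, each thinned to 3000 UMIs and said to carry a class when 3 or more genes of its list had a UMI. A share of cells with few UMIs can come from free RNA in the droplets, and cells with 3 or more epithelial markers, which should lack these classes, carried the fibroblast class in 12.1% (proximal) and 15.8% (distal) and the dermal class in 1.996% and 5.26%. The dermal class was carried by 18.4% (16.2 to 20.7) of G2/M cells and 9.17% (8.22 to 10.2) of non-cycling cells at E14.5. In the proximal segment it was carried by 16.2% (14.5 to 17.9) of G2/M cells and 11.1% (10.2 to 12.2) of non-cycling cells, and in the distal segment by 30.7% (27.7 to 33.8) of G2/M cells and 16.1% (14.95 to 17.2) of non-cycling cells. The thinned rule gave shares of 20.3% and 9.39%, 19.8% and 9.71% and 34.5% and 15.3% in the same order. In these 3 libraries the intervals of the 2 cell groups did not overlap by either rule. With 4 markers in place of 3 the proximal shares were 9.22% (7.94 to 10.6) of G2/M cells and 7.25% (6.44 to 8.13) of non-cycling cells, and their intervals overlapped. Those at E14.5 and E16.5 distal stayed apart with 4 markers. All such intervals count the cells of a single library, so their overlap or separation, here and for the other classes, is a description and no test.

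Read the other way, the dermal class held more G2/M cells than the rest of the same library at E14.5 and E16.5. By the thinned rule G2/M cells made up 7.61% (6.04 to 9.43) inside the class and 4.05% outside it at E14.5, 8.81% (7.29 to 10.5) inside the class and 4.48% outside it in the proximal and 8.37% (7.02 to 9.88) inside the class and 3.44% outside it in the distal segment. The median depth of the G2/M cells of the class was 23096, 22596 and 22700.5 UMIs, against 22590, 26319 and 25502 UMIs for all G2/M cells. The class was rarer before E14.5. It was carried by 3.64% (2.65 to 4.87) of G2/M cells and 1.65% (0.609 to 3.56) of non-cycling cells at E11.5, by 3.94% (2.801 to 5.37) of G2/M cells and 2.04% (1.34 to 2.98) of non-cycling cells at E12.5 and by 5.26% (3.901 to 6.91) of G2/M cells and 2.46% (1.83 to 3.23) of non-cycling cells at E13.5. By the thinned rule these shares were 3.19% and 2.50%, 3.301% and 2.099% and 4.09% and 2.697%, with intervals that overlapped at each of the 3 stages, and the share of G2/M cells was 17.8% inside the class and 17.8% outside it at E11.5, 13.6% (8.13 to 20.9) inside the class and 10.9% outside it at E12.5 and 8.898% (5.59 to 13.3) inside the class and 8.36% outside it at E13.5.

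The fibroblast class was the most frequent at E16.5. It was carried by 70.8% (68.7 to 72.9) of G2/M cells and 71.4% (69.9 to 72.8) of non-cycling cells in the proximal segment and 70.01% (66.9 to 72.98) of G2/M cells and 71.4% (69.98 to 72.8) of non-cycling cells in the distal one. Most G2/M cells of E16.5 thus carried fibroblast genes, although the summed level of these genes was lower in them. By the thinned rule the distal shares were 66.3% (61.2 to 71.1) and 72.96% (71.8 to 74.1), with intervals that did not overlap. The fibrogenic progenitor class was rare, with 2.13% (1.38 to 3.12) of G2/M cells and 5.197% (4.48 to 5.99) of non-cycling cells at E14.5, and 2.67% (1.29 to 4.85) and 4.71% (4.15 to 5.33) by the thinned rule, where the intervals overlapped. The chondrocyte class was carried by 36.9% (33.8 to 40.1) of G2/M cells and 30.2% (28.2 to 32.2) of non-cycling cells at E13.5 and by 11.8% (10.3 to 13.4) of G2/M cells and 20.3% (19.1 to 21.7) of non-cycling cells at E16.5 proximal. These shares by the thinned rule were 40.2% and 28.7% and 14.7% and 16.99%, so that the class remained more frequent among G2/M cells at E13.5 and the intervals met at E16.5 proximal. At E14.5 the chondrocyte class was carried by 19.2% (17.0 to 21.6) of G2/M cells and 16.2% (14.96 to 17.5) of non-cycling cells. By the thinned rule these were 23.2% (19.0 to 27.8) and 16.3% (15.3 to 17.4). The intervals thus overlapped by the rule on all UMIs and lay apart by the thinned rule. With 2 markers in place of 3 the shares by the rule on all UMIs were 31.5% and 31.0%. With 4 markers they were 11.6% (9.87 to 13.6) and 10.6% (9.61 to 11.7). The class was not rarer among G2/M cells there, although 5 of 12 cartilage genes were lower in them. The tenocyte class was carried by 11.5% (9.71 to 13.4) of G2/M cells and 6.57% (5.76 to 7.45) of non-cycling cells at E14.5, and by 7.73% and 7.595% by the thinned rule, with overlapping intervals.

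The early progenitor class covered every cell of both groups at E11.5, and at E12.5 100% of G2/M and 99.8% of non-cycling cells, so that it could not tell the groups apart there. It was carried by 85.9% (83.4 to 88.1) of G2/M cells and 83.5% (81.8 to 85.1) of non-cycling cells at E13.5, 42.1% (39.9 to 44.4) of G2/M cells and 34.2% (32.6 to 35.7) of non-cycling cells in the E16.5 proximal and 53.7% (50.4 to 56.98) of G2/M cells and 44.9% (43.4 to 46.4) of non-cycling cells in the E16.5 distal segment. The shares at E16.5 by the thinned rule were 47.4% and 34.1% in the proximal and 61.1% and 43.9% in the distal segment. As a background, cells with epithelial markers carried this class in 11.5% and 22.4%. Classes were not exclusive. With the early progenitor and limb position classes left out, 34.2% of G2/M cells and 22.3% of non-cycling cells of the distal segment carried exactly 2. In the proximal segment these shares were 23.7% and 23.3%. From E11.5 to E14.5 they were 1.95% and 1.65%, 2.90% and 3.45%, 9.86% and 9.64% and 18.9% and 12.4%.

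**Figure D5:**
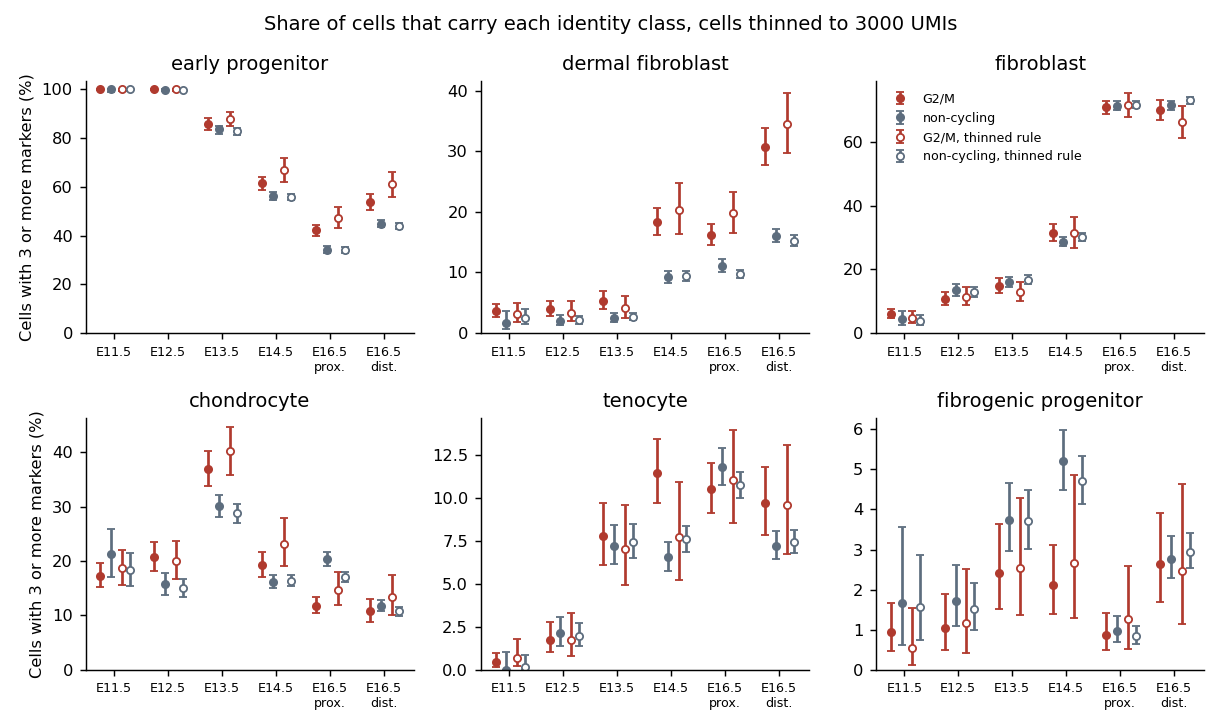
Share of cells that carry 6 identity classes (vertical axes, percent, each from 0 and on its own scale) among G2/M cells (red) and non-cycling cells (grey) of each sorted library, with exact 95% intervals. Filled points use the rule on all UMIs and open points the rule on thinned cells. The dermal class is higher in G2/M cells at E14.5 and in both E16.5 segments by both rules, and the fibroblast class takes 70.8 and 71.4% of the 2 groups at E16.5 proximal.

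Over all genes at 50 CPM or more and outside the G2/M and S-phase lists, those with the largest ratios in G2/M cells included further genes of replication and mitosis. *Hist1h1b* was among the first 6 in 5 of the libraries, with 448 against 3.11 CPM at E14.5 and 2316 against 10.8 CPM at E16.5 distal. The kinetochore gene *Spc25* was at 204 against 4.56 CPM at E12.5 and 125 against 1.38 CPM at E14.5. In the other direction *Mxd4*, a repressor that opposes Myc, was among the first 6 from E11.5 to E14.5, with 68.7 against 164 CPM, 65.1 against 137 CPM, 81.3 against 164 CPM and 75.3 against 164 CPM. *Ogn* (osteoglycin), a small proteoglycan of connective tissue, was at 45.4 against 94.9 CPM at E12.5, 196 against 452 CPM at E14.5 and 245 against 699 CPM at E16.5 distal. *Grina* was at 32.6 against 68.95 CPM, 31.8 against 74.97 CPM and 33.7 against 76.3 CPM on the 3 days from E12.5. *Stmn2*, a microtubule regulator best known in neurons, was at 19.5 against 132 CPM at E13.5, *Postn* (periostin) at 46.1 against 117 CPM there, and *Aspn* (asporin) at 284 against 712 CPM at E16.5 distal. All of these kept their direction under the 11 alternatives.

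Markers of other cell types were low in the G2/M cells up to E13.5. Summed myogenic, immune, erythroid and glial genes stayed at or below 10.02 CPM in G2/M cells of every library. Endothelial genes were between 6.22 and 35.4 CPM in G2/M cells and between 2.80 and 31.1 CPM in non-cycling cells. Within a library they were farthest apart at E11.5, 2.22-fold higher (1.04 to 5.67) in G2/M cells with 6.22 against 2.80 CPM. At E14.5 they were 1.80-fold higher (1.64 to 1.97), with 35.4 against 19.7 CPM. There 7 of 1176 G2/M cells and 1 of 3425 non-cycling cells carried 3 or more endothelial markers. By the thinned rule 0 of the 12 cells with these markers were G2/M cells. The 10 epithelial genes summed to 56.4, 82.3 and 77.6 CPM in G2/M cells at E11.5, E12.5 and E13.5, which was 1.13, 1.11 and 1.204 times the non-cycling level. At E12.5 this was mostly *Epcam* at 35.7 against 28.4 CPM and *Krt10* at 40.8 against 40.5 CPM. The basal keratins *Krt5* and *Krt14* were at 0 in both cell groups from E11.5 to E13.5. Cells with 3 or more of 10 epithelial markers numbered 34 of the G2/M cells at E14.5 (2.89%), 202 in the proximal segment (11.03%) and 19 in the distal segment (2.09%). Among non-cycling cells they were 0.234%, 6.79% and 0.248% in the same order. By the thinned rule G2/M cells made up 8.57% (3.21 to 17.7) of cells with these markers and 4.44% of the others at E14.5. In the proximal segment they made up 2.79% (1.86 to 4.01) and 5.17%, so that the order there turned. The distal values were 10.5% (4.66 to 19.7) and 4.26%. Summed epithelial genes in G2/M cells were 3.91, 0.485 and 3.07 times the non-cycling level, with 161 against 6.46 CPM of *Krt14* in the distal segment. At E16.5 proximal the G2/M cells had more of the basal keratins, with 701 against 104 CPM of *Krt14* and 374 against 52.7 CPM of *Krt5*, and less of the suprabasal ones, with 210.3 against 1295 CPM of *Krt1* and 312 against 1589 CPM of *Krt10*. Over all genes, the 6 with the lowest ratios in that segment were *Orm1*, *Krt77*, *Lor*, *Ly6g6c*, *Sprr1a* and *Asprv1*, several of them genes of the cornified layer, led by *Orm1* at 10.4 against 143 CPM and loricrin (*Lor*) at 124 against 1396 CPM. Without the cells that carried epithelial markers the log2 ratio of *Krt77* was 0.00, against -3.76 with them. The ratio nearest to level under any alternative was -0.18 for *Ly6g6c*, -0.19 for *Lor*, -0.31 for *Asprv1*, -0.40 for *Sprr1a* and -0.75 for *Orm1*, where the unaltered ratios were -3.38, -3.49, -3.10, -3.23 and -3.79.

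The reporter and *Hic1* were close to level between the cell groups. tdTomato was at 432, 663, 674, 427, 1411 and 904 CPM in G2/M cells and 528, 766, 756, 446, 1367 and 863 CPM in non-cycling cells, from E11.5 to E16.5 distal, so that it was slightly lower in G2/M cells up to E14.5 and slightly higher in both E16.5 segments. *Hic1* was at 22.0, 38.05, 23.7, 24.3, 21.1 and 21.9 CPM in G2/M cells and 22.4, 41.5, 28.1, 28.2, 20.2 and 26.9 CPM in non-cycling cells, and the interval of the ratio lay below 1 at E13.5 (0.7103 to 0.996), E14.5 (0.782 to 0.945) and E16.5 distal (0.736 to 0.895). CreERT2 stayed at or below 1.49 CPM in both groups of every library. No pair of sorted libraries shared more than 37 cell barcodes, and at most 1 barcode was a G2/M cell in both.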

How the data were processed

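Single cells of pooled embryonic forelimbs were sorted for tdTomato and sequenced as 10x Genomics 3′ libraries. The deposited values are UMI counts per gene and cell, which the authors made with Cell Ranger (3.0.2 and 6.0.1 are named in the submitters' processing notes, with the mm10 genome) and left unnormalised. Barcodes with at least 3000 UMIs and at most 10% mitochondrial UMIs were kept (41939 cells in the 6 sorted libraries, of which the barcodes of epithelial cells were not removed). UMIs were summed over the G2/M and the non-cycling cells of a library and scaled to CPM, and a gene was said to be higher or lower at a fold of 1.5 with a mean of at least 10 CPM. A fold against 0 UMIs used a floor of 3 UMIs. With 1 library per group no p-value was computed, and the intervals are exact Clopper-Pearson (shares) or exact conditional Poisson (folds) intervals at 95%, for counting error only.

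The members, gene lists and alternatives were chosen with earlier results of these data known. Genes named were the 7 rule genes, up to 3 genes per identity list and library with the largest ratios, the 6 largest over all genes in each direction at 50 CPM or more (outside the G2/M and S-phase lists, haemoglobin, mitochondrial and sex-linked genes), *Hic1*, the reporter, the cyclins of G1 and the inhibitors. Other genes named were picked after their values were seen. Classes and S-phase genes were counted in cells thinned to 3000 UMIs with a fixed seed. Scrublet called under 0.5% of the cells in every library and is taken as not having worked, so doublets were kept. Leaving out the 6% of cells with the highest doublet score, and the G2/M cells with 3 or more S-phase genes, were alternatives added after the data were seen. The other alternatives changed the rule, the comparison cells, their depth, the scaling and the minimum level. Scripts were tested on simulated counts. Python 3.11.15, scanpy 1.11.5, numpy 2.4.6, scipy 1.17.1, pandas 2.3.3 and matplotlib 3.10.9 were used.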

Additional observations from a re-analysis of the deposited data

Results flagged for a closer look

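The log2 ratio of G2/M over non-cycling cells lay past 1.5-fold on opposite sides in different libraries for 7 identity genes. The differences between libraries were not tested, each library being a single sample, and kit and dissociation changed with stage. *Sox9* was 0.60 at E11.5 and -0.63 at E16.5 proximal, and by the rule on thinned cells 0.76 and 0.08. *Tnmd* was 0.92 at E13.5 and -0.62 at E16.5 proximal, and -0.09 and 0.54 with depth weighting. *Kera* was 2.13 at E11.5 and -0.97 at E16.5 proximal, and -0.12 and -0.10 with depth weighting. *Dkk2* was 1.06 at E11.5 and -0.92 at E16.5 distal, by the rule on thinned cells 0.80 and -0.84, and with depth weighting -0.18 and -1.02, on the same side. *Rgs5* was 2.56 at E16.5 distal and -1.13 at E12.5, and by the rule on thinned cells 0.08 and -0.81. *Tagln* was 0.66 at E16.5 distal and -0.96 at E11.5, and by the rule on thinned cells -0.94 and -1.15, on the same side. *Hoxd13* was 0.93 at E12.5 and -0.73 at E13.5, 0.59 and -0.73 by the rule on thinned cells and 0.17 and -0.09 with depth weighting, so that it stayed on opposite sides at these stages in each case.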

How the results depend on the processing

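The share of G2/M cells followed the depth and the number of genes asked for. It was 17.8, 10.9, 8.38, 4.47, 4.96 and 4.32% from E11.5 to E16.5 distal by the rule on thinned cells, 42.4, 23.4, 18.2, 16.5, 19.9 and 13.2% with 4 genes and 30.96, 16.99, 11.5, 11.2, 13.1 and 8.41% with 6, and 19.2, 13.8, 12.9, 15.3 and 9.69% from E12.5 on without the 6% of cells with the highest doublet score. Leaving out Scrublet calls, cells of epithelial markers or the mitochondrial limit moved no share beyond its interval.

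Of the identity genes past 1.5-fold in G2/M cells, comparison with all other cells left 3 higher and 2 lower at E11.5, 1 higher at E12.5, 2 and 4 at E13.5, 6 and 9 at E14.5, 5 lower in the proximal and 3 lower in the distal segment. This group also holds cells with 1 to 4 of the rule genes. No minimum level gave 13 higher and 20 lower at E11.5, 13 and 14 at E12.5, 12 and 13 at E13.5, 16 higher at E14.5 and 20 and 10 at E16.5 distal, since more genes then entered. Depth weighting gave 2 higher at E11.5, 11 higher and 4 lower at E12.5, 14 and 11 at E13.5, 20 higher in the proximal and 21 lower in the distal segment. The rule on thinned cells gave 3 higher at E12.5, 7 at E13.5, 18 (with 7 lower) in the proximal and 20 in the distal segment. Without the S-phase limit 2 were higher at E13.5, and without cells of epithelial markers 4 at E16.5 proximal. No share over all genes is given beside these counts, so they show how the calls move with the setting and nothing about identity genes as such. The causes were not tested beyond these constructions.

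Of the 101 identity genes past 1.5-fold, 16 turned by the rule on thinned cells, 12 of them at E16.5 proximal (*Sox5* and genes of the chondrocyte list), and 16 turned with depth weighting. Among those by the rule on thinned cells were *Acta2* -0.40 (E12.5), *Thbs4* -0.29 (E14.5), *Col11a2* 0.23, *Col2a1* 0.18 and *Sox5* 0.18 (E16.5 proximal), and *Acta2* -0.083 and *Tagln* -0.94 (E16.5 distal). With depth weighting they were *Col11a2* 0.039 (E14.5), *Tnmd* 0.54 (E16.5 proximal), *Aldh1a2* 0.079, *Dkk2* -0.18, *Gdf5* 0.44 and *Kera* -0.12 (E11.5), *Axin2* -0.22, *Dkk3* 0.47 and *Gdf5* 0.25 (E12.5), *Nkd2* -0.31 and *Tnmd* -0.094 (E13.5), *Acta2* -0.17, *Hapln1* 0.10 and *Thbs4* -0.42 (E14.5), *Dkk3* 0.047 (E16.5 proximal) and *Tagln* -0.66 (E16.5 distal). *Lef1* -0.10 (E16.5 proximal) turned without cells of epithelial markers, and *Tagln* -0.41 (E16.5 distal) among G2/M cells with fewer than 3 S-phase genes. Of 171 values of named identity genes, 132 kept their direction and their side of 1.5-fold by the rule on thinned cells, 106 with depth weighting and between 138 and 171 under the other settings. With 2 or 4 markers in place of 3, the dermal class was more frequent in G2/M than in non-cycling cells by 9.75 or 6.47 percentage points at E14.5, 7.77 or 1.97 in the proximal and 17.7 or 8.903 in the distal segment.

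No paired analysis was possible because each stage or segment was 1 library, with no replicate numbers to pair, and the 6 within-library comparisons are of different stages or segments. Leaving out a replicate was not possible either. Genes at a few CPM in a small group, as at E11.5, rest on few UMIs, and their intervals are wide.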
